A study of Mus musculus with 8 samples.

Results

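The interleukin 33 and interleukin 1 axis was followed through the response of muscle mesenchymal progenitors to injury. It was taken as 7 genes, which are the ligand genes Il33, Il1b and Tslp, the antagonist gene Il1rn, the receptor genes Il1rl1 and Il1r1, and the co-receptor gene Il1rap. They were chosen by name as 7 of the 23846 rows of the deposited table of FPKM (fragments per kilobase of transcript, scaled to the mapped fragments of the library), and each symbol stood on 1 row.

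RNA of 8 libraries was sequenced, 1 from quiescent progenitors and 7 from injured muscle, 1 per time point on days 1, 2, 3, 4, 5, 7 and 10 after damage by notexin, a phospholipase from snake venom that kills muscle fibres. The cells were purified by flow cytometry for tdTomato from the whole hindlimb muscle of mice (C57BL/6J) of the genotype Hic1CreERT2/CreERT2;Rosa26LSLtdTomato/+. All groups, the quiescent one included, carried both Hic1CreERT2 alleles and received tamoxifen (2.5 mg daily for 5 days from 8 weeks of age, then 10 days without it). The Cre stands at the Hic1 locus on both chromosomes, so the reporter marks cells that expressed Hic1 under tamoxifen and their descendants. Whether mice were pooled for a library is not stated. Mesenchymal progenitors are stromal cells that lie between the muscle fibres and support their repair.

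Interleukin 33 is a nuclear protein of stromal and barrier cells that acts as an alarm signal once it leaves a damaged cell. It binds ST2, the product of Il1rl1, and in muscle it is known for acting on regulatory T cells. Interleukin 1 beta, made mainly by myeloid cells and cleaved into its active form by caspase 1, binds the type 1 receptor encoded by Il1r1. Both receptors need the shared chain encoded by Il1rap to signal through Myd88 to NF-kB, and the product of Il1rn occupies the type 1 receptor without signalling. A soluble form of ST2 made from the same gene catches interleukin 33. Thymic stromal lymphopoietin, the product of Tslp, belongs to another cytokine family and signals through Crlf2 and the interleukin 7 receptor chain to JAK and STAT5, and it is grouped with interleukin 33 as an alarm signal of stromal and epithelial cells.

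The results turn most on Il1rl1, Il1b and Il33, so the windows around their transcript starts in RefSeq are shown, each of 300 bases from 250 before the start. For Il1rl1 and Il33 both start regions are shown. For Il1rl1 this is because in mice a distal start is known from mast cells and other blood cells and a proximal one from fibroblasts. The sequences are those of RefSeq on GRCm38.p6, written 5′ to 3′ on the strand of the gene, and capitals mark the matches of 6 searched motifs.
Il1rl1 proximal start, chr1:40439379-40439678, plus strand: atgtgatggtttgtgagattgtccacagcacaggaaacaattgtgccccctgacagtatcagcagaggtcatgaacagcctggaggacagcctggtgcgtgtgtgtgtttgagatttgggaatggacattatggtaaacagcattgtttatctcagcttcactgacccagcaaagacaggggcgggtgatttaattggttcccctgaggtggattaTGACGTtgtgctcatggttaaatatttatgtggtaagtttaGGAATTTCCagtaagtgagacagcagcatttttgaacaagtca
Il1rl1 distal start, chr1:40429320-40429619, plus strand: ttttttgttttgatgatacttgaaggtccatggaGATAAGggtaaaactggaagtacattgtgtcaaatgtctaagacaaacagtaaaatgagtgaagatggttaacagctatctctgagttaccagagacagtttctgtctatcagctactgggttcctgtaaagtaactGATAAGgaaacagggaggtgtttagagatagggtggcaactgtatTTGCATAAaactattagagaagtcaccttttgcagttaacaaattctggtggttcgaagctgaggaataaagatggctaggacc
Il1b, chr2:129371090-129371389, minus strand: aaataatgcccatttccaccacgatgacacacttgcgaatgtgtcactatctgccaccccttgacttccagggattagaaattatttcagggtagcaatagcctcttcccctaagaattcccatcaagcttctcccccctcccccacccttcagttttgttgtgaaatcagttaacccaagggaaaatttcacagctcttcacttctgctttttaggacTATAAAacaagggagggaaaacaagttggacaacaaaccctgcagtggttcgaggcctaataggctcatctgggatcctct
Il33 first start, chr19:29924863-29925162, plus strand: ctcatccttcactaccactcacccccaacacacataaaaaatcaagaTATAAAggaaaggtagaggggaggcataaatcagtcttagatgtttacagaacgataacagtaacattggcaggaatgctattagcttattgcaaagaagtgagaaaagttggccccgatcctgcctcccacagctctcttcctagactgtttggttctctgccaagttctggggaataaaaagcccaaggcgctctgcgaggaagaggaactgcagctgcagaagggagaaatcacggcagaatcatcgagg
Il33 internal start, chr19:29945540-29945839, plus strand: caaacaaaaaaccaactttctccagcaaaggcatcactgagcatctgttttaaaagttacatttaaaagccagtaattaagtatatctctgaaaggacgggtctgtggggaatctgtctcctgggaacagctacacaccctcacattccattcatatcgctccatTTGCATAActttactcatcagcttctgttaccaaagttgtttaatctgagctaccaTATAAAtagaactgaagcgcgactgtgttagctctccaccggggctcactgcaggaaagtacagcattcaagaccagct

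The motifs were searched on both strands. The first was an NF-kB type site, GGANTTNCC, and the second an AP-1 site, TGANTCA. The third was the core of a cyclic AMP response element, TGACGT, and the fourth the motif of the factors named after it, GATAAG. The fifth was the promoter box TATAAA and the sixth the C/EBP type site TTGCNNAA. Of 32851 windows of this kind over all genes, 3.95% held the first, 7.81% the second, 7.51% the third, 7.44% the fourth, 13.6% the fifth and 10.8% the sixth, and no matches overlapped in the windows shown. The proximal Il1rl1 window held an NF-kB type match whose first base is base 8 of the transcript and a TGACGT that begins 34 bases before the start. The distal one held GATAAG 216 and 79 bases before its start and a C/EBP type match 34 bases before it. The Il1b window held TATAAA 31 bases before the start, and the first Il33 window held it 203 bases before. The window of the internal Il33 start, which lies 20676 bases downstream of the row's beginning, held TATAAA 29 bases and a C/EBP type match 85 bases before that start. A match describes the letters and shows no binding, and a window without one says only that those letters are not there. In the deposited table the Il1rl1 row begins at position 40439649 of chromosome 1, 20 bases after the proximal start and 10079 after the distal one. Its FPKM therefore cannot assign fragments to a start, and it does not separate soluble from membrane ST2.

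The estimated depth ran from 10.65 M (mega) fragments on day 3 to 28.35 M on day 10. All 10 mesenchymal progenitor markers (among them Hic1, Pdgfra and Dcn) stood at 1 FPKM or more in all 8 libraries. Their summed level was 10451 FPKM in quiescent and ran from 6311 on day 1 to 18757 on day 7, much of it from Dcn, Col1a1 and Col3a1. By the call defined below, 5 of the 10 were lower and 0 higher than quiescent on day 1 (12.5% and 22.5% of all genes). On day 2, 3 were lower and 0 higher (10.9% and 23.7%), and on day 10, 0 were lower and 3 higher (1.21% and 3.09%). Macrophage and monocyte markers were also present, and 15 of the 16 listed were in the table. Their summed level was 35.4 FPKM in quiescent and 178, 274, 949, 156, 540, 84.5 and 87.5 at the 7 days in order. Endothelial markers summed to 92.8 FPKM in quiescent and to between 13.6 and 70.4 after injury. Schwann cell markers summed to 393 FPKM in quiescent, 251 of it from Pmp22, and to between 120 on day 1 and 403 on day 10. Pericyte and smooth muscle markers summed to 119 FPKM in quiescent and to between 19.8 on day 1 and 232 on day 10. With 1 library per time point no spread between animals could be measured, so no p-value is given, and the intervals below cover counting error only.

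A gene was compared with quiescent where it reached 5 FPKM in the higher library, and it was called higher or lower where log2(FPKM + 1) differed by 1 or more. All 7 comparisons share the quiescent library. On day 1, 6 of the 7 genes were compared and 4 were called higher (Il1rl1, Il1b, Tslp and Il1r1), where 22.5% of 8701 genes were called higher and 12.5% lower. On day 2, 2 of 5 were called higher (Il1rl1 and Il1r1), against 23.7% higher and 10.9% lower of 8845 genes. On day 3, 3 of 5 were called higher (Il33, Il1rl1 and Il1r1), against 15.7% and 8.26% of 8765 genes. On day 4 only Il1rl1 of 5 was called, against 4.56% and 2.16% of 8351 genes. None of the 4 compared was called on day 5 (8.42% and 4.61%), day 7 (4.01% and 2.45%) or day 10 (3.09% and 1.21%), and none was called lower at any of the 7 days. So many genes were called higher at days 1 and 2 that a call there says little of the 7 genes, and the rank of each is given below.

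**Figure D1:**
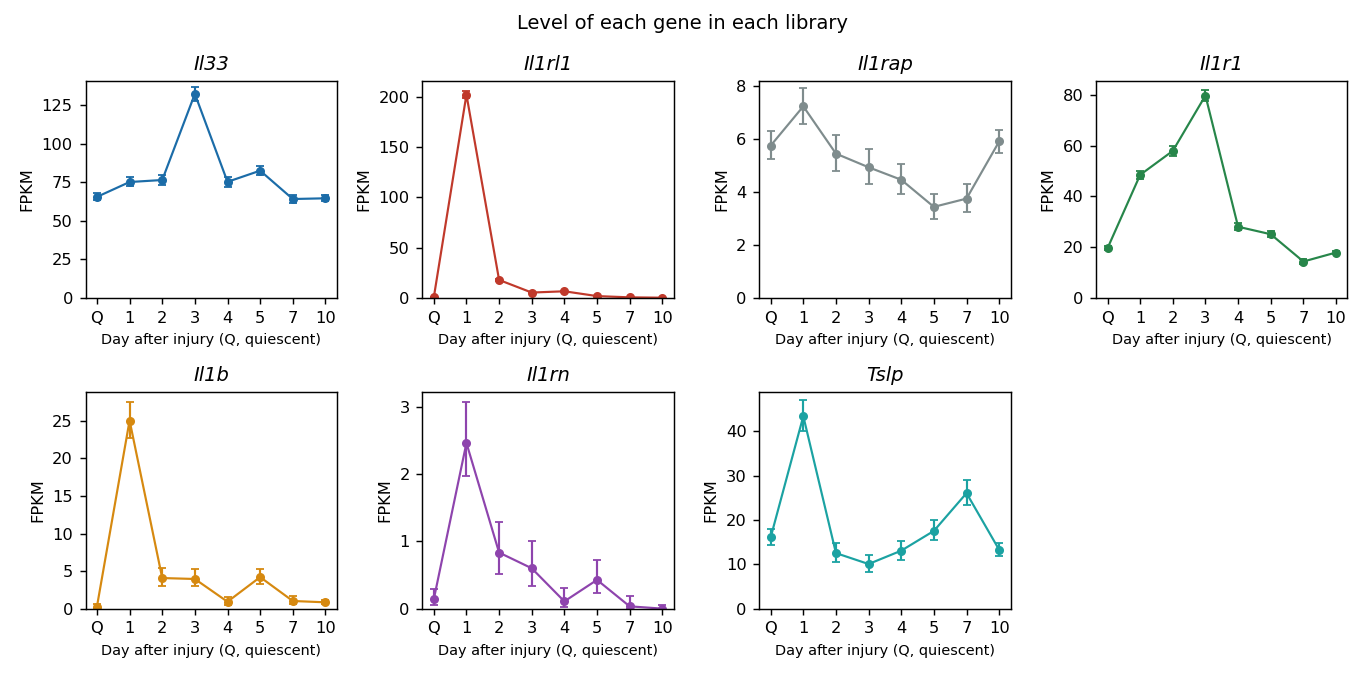
FPKM (vertical axis, linear and different for each gene) in each of the 8 libraries (horizontal axis, Q for quiescent), 1 panel per gene, with bars for the 95% counting interval of each library. Il1rl1, Il1b, Il1rn, Tslp and Il1rap are highest on day 1, and Il33 and Il1r1 on day 3.

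FPKM as deposited summed to more in the injured libraries, and scaling matters for small differences. The change that scaling made to the difference of each gene was taken over genes that reached 5 FPKM in the higher library. Under the median ratio the median change was -0.32, -0.34, -0.24, -0.08, -0.13, -0.09 and -0.06 (log2) over the 7 days in order. At a common sum the median change was -0.50, -0.59, -0.41, -0.14, -0.36, -0.22 and -0.03. Genes called higher and lower numbered 1954 and 1091 on day 1 as deposited, 1248 and 1692 under the median ratio and 952 and 2216 at a common sum. On day 2 they were 2099 and 962, then 1253 and 1559, then 861 and 2251, and on day 3 they were 1376 and 724, then 947 and 1057, then 723 and 1469. On day 4 the splits were 381 and 180, 337 and 248, and 323 and 316. On day 5 they were 710 and 389, 557 and 554, and 371 and 1017, and on day 7 336 and 205, 302 and 274, and 253 and 415. Where either scaling changed a call of the 7 genes, this is given with the gene.

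**Figure D2:**
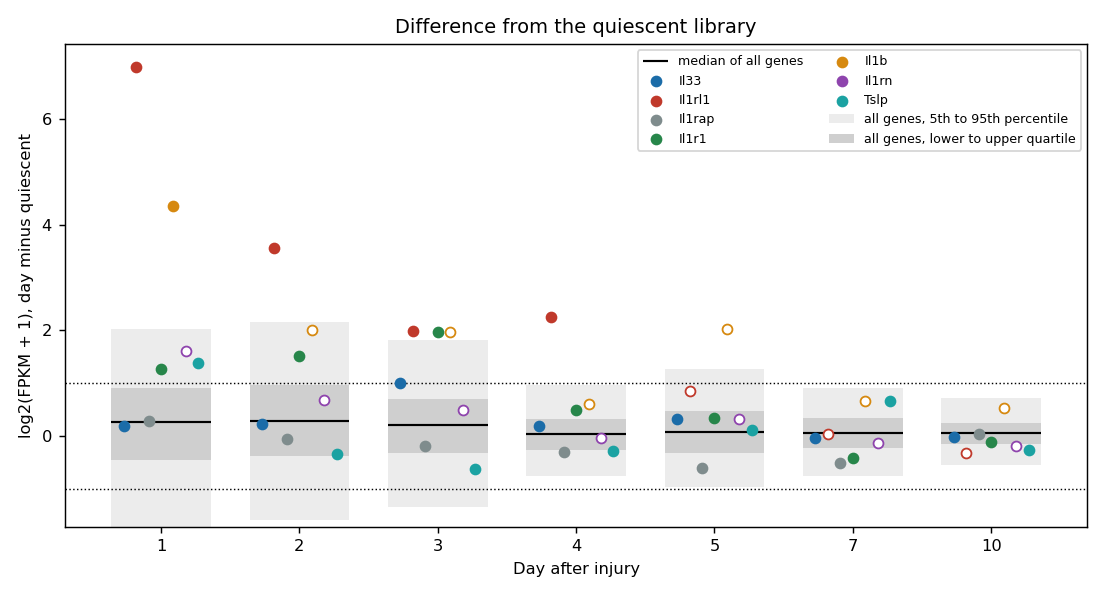
Difference of log2(FPKM + 1) from quiescent (vertical axis) at each day (horizontal axis) for each gene, filled where the gene reached 5 FPKM in the higher library and open where it did not. Light grey boxes span the 5th to the 95th percentile of all compared genes, and darker ones the lower to the upper quartile. Dotted lines mark the call at 1 and -1, and Il1rl1 lies at 6.98 on day 1, above the box that ends at the 95th percentile of 2.02.

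Il1b, the ligand made mainly by myeloid cells, was low in quiescent cells and had a single high library. Its level was 0.273 FPKM in quiescent, 25.0 on day 1, 4.08 on day 2, 3.95 on day 3, 0.928 on day 4, 4.21 on day 5, 1.02 on day 7 and 0.848 on day 10. Day 1 stood clear of every other library, while days 2, 3 and 5 lay within each other's counting intervals. On day 1 the level was 91.7-fold that of quiescent (95% counting interval 41.6 to 202), a difference of 4.35 on log2(FPKM + 1) and the 28th largest increase of 8701 genes. The wide interval comes from the estimated 6 fragments in quiescent, against 430 on day 1. The call held under the median ratio and at a common sum, where the difference was 4.07. From day 1 to day 2 the level was 6.14-fold lower. In a bulk library, fewer cells of a type and less RNA per cell cannot be told apart, here and for each gene that follows.

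The time course of Il1b was set beside the macrophage markers, since myeloid cells are a main source of the ligand. The summed macrophage markers were highest on day 3 and second highest on day 5, and Il1b was highest on day 1. Of the 15 macrophage markers in the table, only Cd14 and Mrc1 were highest on day 1, and all others were highest on day 3. Cd14, a receptor of myeloid cells for bacterial lipid that stromal cells can also express, is given because it was nearest to Il1b by correlation (below). It stood at 4.64 FPKM in quiescent and at 21.2, 10.2, 7.70, 4.83, 10.2, 5.64 and 5.97 at the 7 days in order. The level of Il1b relative to Lyz2, the lysozyme gene of macrophages, was 0.0307 in quiescent, 0.454 on day 1, 0.0317 on day 2 and 0.0101 on day 3. Relative to Tyrobp, a signalling adaptor of myeloid cells, it was 0.124, 0.971, 0.168 and 0.0422 in the same 4 libraries. Both ratios were thus highest on day 1 and lowest of these 4 on day 3. Lyz2 and Tyrobp were themselves highest on day 3, which lowers both ratios there, and no ratio to Cd14 or Mrc1 was taken. Of the 15 macrophage markers, 13 reached 1 FPKM on day 1 and none was at the floor in any library, and their part in the level of Il1b was not tested. The 11 neutrophil markers in the table summed to 74.0 FPKM in quiescent, 64.5 on day 1 and 111 on day 5. They include Il1r2, which gave 26.2, 15.5 and 16.4 FPKM of these sums. Of the other markers, S100a8, Cxcr2, Csf3r, Retnlg and Mmp9 were higher on day 1 than in quiescent. S100a9, Mmp8, Camp, Ngp and Ltf were lower, and the part of neutrophils in the level of Il1b was not tested either.

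**Figure D3:**
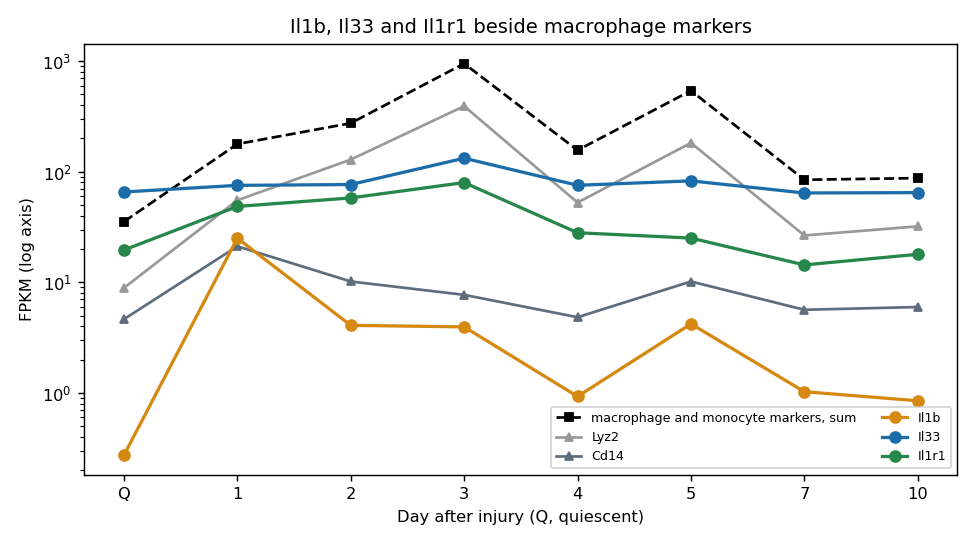
FPKM on a log axis (vertical) of Il1b, Il33 and Il1r1, of Lyz2 and Cd14, and of the summed macrophage and monocyte markers, in each library (horizontal axis, Q for quiescent). The summed markers are highest on day 3, as are Il33 and Il1r1, while Il1b and Cd14 are highest on day 1.

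Il1rn, the antagonist of the type 1 receptor, stayed low throughout. It was at 0.140 FPKM in quiescent, 2.47 on day 1, 0.835 on day 2, 0.601 on day 3, 0.109 on day 4, 0.428 on day 5 and 0.0348 on day 7, and it was listed at the floor of 0.001 on day 10. Day 1 was highest, with an interval apart from the next library, and it was 17.6-fold the quiescent level (7.76 to 39.9). It rests on an estimated 82 fragments on day 1 and on at most 21 in any other library. Since the gene never reached 5 FPKM, it was not compared with quiescent and is counted in no call. Per length of transcript, Il1rn stood at 0.0984 of Il1b on day 1 and at 0.513 in quiescent, where both rest on 6 fragments.

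Il33, the alarm cytokine, was the most abundant of the 3 ligand genes in every library. Its level was 65.6 FPKM in quiescent, 75.2 on day 1, 76.5 on day 2, 132 on day 3, 75.3 on day 4, 82.6 on day 5, 64.2 on day 7 and 64.6 on day 10. Day 3 stood apart from all others, neighbours in the order among days 5, 2, 4 and 1 overlapped in their intervals, and days 7 and 10 lay within the interval of quiescent. The day 3 level was 2.02-fold that of quiescent (1.92 to 2.12), a difference of 1.00 on the log2 scale that only just met the call and ranked 1369th of 8765 genes. Under the median ratio it was 0.75 and at a common sum 0.57, so the call was lost under both, though day 3 remained the highest library. At days 1 and 2 the deposited differences of 0.20 and 0.22 turned to -0.15 under the median ratio at both days, and to -0.34 and -0.40 at a common sum. The macrophage markers were also highest on day 3, and their part in the level of Il33 was not tested. Endothelial cells can express Il33 too. Their 10 markers summed to 92.8 FPKM in quiescent, 68.9 of it from Tek, and to 13.6, 14.2, 18.1, 51.3, 49.1, 64.7 and 70.4 at the 7 days in order, and their part in the level of Il33 was not tested.

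Tslp, on chromosome 18, was expressed in every library and was highest on day 1, with a smaller second high level on day 7. Its level was 16.1 FPKM in quiescent, 43.4 on day 1, 12.5 on day 2, 10.1 on day 3, 13.1 on day 4, 17.6 on day 5, 26.1 on day 7 and 13.3 on day 10. Days 1 and 7 each had a counting interval apart from the next library, and the remaining neighbours in the order overlapped. The day 1 level was 2.70-fold that of quiescent (2.35 to 3.10), 1.38 on the log2 scale and 1171st of 8701 genes. The call held under the median ratio at 1.04 and was lost at a common sum at 0.86. The day 7 level was 1.62-fold that of quiescent (1.38 to 1.90), 0.66 on the log2 scale, short of the call but 802nd of 8379 genes. From day 1 to day 2 it was 3.46-fold lower, and on day 3 it was 0.63 below quiescent on the log2 scale, which became a call of lower at a common sum (-1.04). Keratinocytes are a known source of Tslp in skin. Their markers Krt5, Krt14, Krt15 and Trp63 together reached at most 0.420 FPKM in any library and were all at the floor on day 1, and the part of other cells in the level of Tslp was not tested.

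Il1rl1, the receptor of interleukin 33, had the largest difference of the 7 genes. Its level was 0.608 FPKM in quiescent, 202 on day 1, 17.9 on day 2, 5.40 on day 3, 6.66 on day 4, 1.89 on day 5, 0.641 on day 7 and 0.283 on day 10. It was among the lowest of the 7 genes in quiescent, the highest of them on day 1, and within the counting interval of quiescent on day 7. Estimated fragments were 59 in quiescent, 14840 on day 1 and 41 on day 10. The ratio to quiescent was 333 on day 1 (258 to 429), 29.5 on day 2 (22.7 to 38.4), 8.89 on day 3 (6.72 to 11.7) and 11.0 on day 4 (8.35 to 14.4). On log2(FPKM + 1) these were differences of 6.98, 3.56, 1.99 and 2.25. The increase ranked 11th of 8701 genes on day 1, 107th of 8845 on day 2, 361st of 8765 on day 3 and 90th of 8351 on day 4. All 4 calls held under the median ratio. At a common sum those at days 1, 2 and 4 held, and on day 3 the rescaled level was under 5 FPKM and was not compared. Days 3 and 4 overlapped in their counting intervals.

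Il1rl1 was much lower on day 2 than on day 1, though it was still called higher than quiescent up to day 4. From day 1 to day 2 the level was 11.3-fold lower, which ranked 8327th of the 8339 genes compared between these libraries, counted from the largest increase. On day 10 it stood at 0.466 of the quiescent level (0.313 to 0.693), with both levels below 1 FPKM. Mast cells, basophils, group 2 innate lymphoid cells and regulatory T cells are the blood cells best known to express this receptor. The 10 mast cell and basophil markers summed to 2.67 FPKM on day 1 and to between 0.832 and 8.29 over the 8 libraries, and Mcpt8, Tpsab1, Ms4a2 and Fcer1a were at the floor on day 1 as in quiescent. Of the others, Hdc, the histidine decarboxylase gene, stood at 0.166 FPKM in quiescent and 1.41 on day 1, its highest library. Cpa3 stood at 0.164 and 0.330 and Cma1 at 0.175 and 0.398 in these 2 libraries. The rest were lower on day 1, with Mcpt4 at 0.582 and 0.354, Tpsb2 at 0.403 and 0.157 and Kit at 0.0729 and 0.0136. The 13 markers of group 2 innate lymphoid and regulatory T cells summed to 0.925 FPKM on day 1, with Cd3e, Cd3g, Cd4, Ctla4, Gata3, Il5, Il4 and Klrg1 at the floor. On day 1, where Il1rl1 was at 202 FPKM, Hdc was the only one of these markers at 1 FPKM or more, and the part of these cells in the level of Il1rl1 was not tested.

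Il1r1, the type 1 receptor of interleukin 1, stood higher over the first 3 days and was highest on day 3. Its level was 19.6 FPKM in quiescent, 48.5 on day 1, 57.9 on day 2, 79.7 on day 3, 28.0 on day 4, 25.1 on day 5, 14.4 on day 7 and 17.9 on day 10. In the order of levels each library had a counting interval apart from the next. The ratio to quiescent was 2.48 on day 1 (2.35 to 2.61), 2.96 on day 2 (2.80 to 3.12) and 4.07 on day 3 (3.87 to 4.29). The log2 differences were 1.27, 1.52 and 1.97, and they ranked 1383rd of 8701, 1016th of 8845 and 377th of 8765 genes. The median ratio left 0.93, 1.16 and 1.72 and the common sum 0.75, 0.91 and 1.55, so the day 1 call was lost under both, the day 2 call at the common sum, and the day 3 call held. On day 7 Il1r1 was 0.42 below quiescent on the log2 scale, which was not a call. Macrophage markers were likewise highest on day 3, and their part in the level of Il1r1 was not tested.

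Il1rap, the chain that both receptors need, was called at no day. It stood at 5.74 FPKM in quiescent, 7.22 on day 1, 5.44 on day 2, 4.92 on day 3, 4.45 on day 4, 3.43 on day 5, 3.74 on day 7 and 5.89 on day 10. Day 1 had an interval apart from the next library, and every other neighbour in the order overlapped. The differences from quiescent ran from 0.29 on day 1 to -0.60 on day 5, where the level was 0.598 of quiescent (0.508 to 0.705). The highest library was day 1 as deposited, quiescent under the median ratio and day 10 at a common sum, so no peak is given.

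Transcripts of the 2 receptor genes and of Il1rap therefore stood in very different proportions over the time course. Per length of transcript, Il1rl1 was 0.106 of Il1rap in quiescent, 28.0 times it on day 1, 3.30 times on day 2, 1.10 times on day 3, 1.50 times on day 4 and 0.551, 0.171 and 0.0480 of it at days 5, 7 and 10. Day 1 was highest, and both quiescent and the last 3 days were below 1. Il1r1 was above Il1rap in all 8 libraries, by 3.41-fold in quiescent, 16.2-fold on day 3 and 3.04-fold on day 10. These ratios are between libraries' own values and do not depend on scaling. They were picked after the levels were seen, and they are ratios of transcripts, not of proteins. The Il1rl1 row takes in soluble as well as membrane ST2, so its ratio to Il1rap is not one of signalling receptor to co-receptor.

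Il1r2 encodes the decoy receptor that binds interleukin 1 without signalling. Its level was 26.2 FPKM in quiescent, 15.5 on day 1, 12.1 on day 2, 14.2 on day 3, 29.5 on day 4, 16.4 on day 5, 23.8 on day 7 and 21.5 on day 10. It was lowest on day 2, where it was called lower (-1.05 on the log2 scale), also under both scalings, which called it lower on day 1 (-1.05 and -1.23) and day 3 (-1.08 and -1.26) as well, as did the common sum on day 5. Il1r1 was 0.748 of Il1r2 in quiescent and 3.12, 4.77, 5.62, 0.950, 1.53, 0.602 and 0.834 times it at the 7 days in order. The signalling receptor thus exceeded the decoy at days 1, 2, 3 and 5 and lay below it in the other 4 libraries. Neutrophils are known to express Il1r2. The 11 neutrophil markers in the table summed to between 33.6 FPKM on day 3 and 111 on day 5. Il1r2 is itself among them, so this sum cannot be set beside its level. Il1r2 gave 14.2 and 16.4 FPKM of these sums, and 29.5 of the 34.9 FPKM on day 4. Of the other markers, S100a9, Mmp8, Camp and Ltf were at the floor on day 4. The part of neutrophils in the level of Il1r2 was not tested.

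Both receptor genes lie in a cluster of 6 interleukin 1 family receptor genes on chromosome 1, which spans 465 kb in the deposited coordinates. In genomic order these are Il1r2, Il1r1 (40225080 to 40316177), Il1rl2, Il1rl1 (40439649 to 40465414), Il18r1 and Il18rap. The neighbours did not share one time course. Il1rl2, the interleukin 36 receptor, stood at 16.9 FPKM in quiescent, 14.5 on day 1, 6.09 on day 2, 5.98 on day 3, 14.5 on day 4, 4.88 on day 5, 6.67 on day 7 and 11.7 on day 10, and was called lower at days 2, 3, 5 and 7. The interleukin 18 receptor genes were close to absent, with Il18r1 at most 0.715 FPKM and Il18rap at most 0.180. Il18r1 begins 138 bases after the end of Il1rl1 in the table and stood at 0.0554 FPKM on day 1, when Il1rl1 was at 202.

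**Figure D4:**
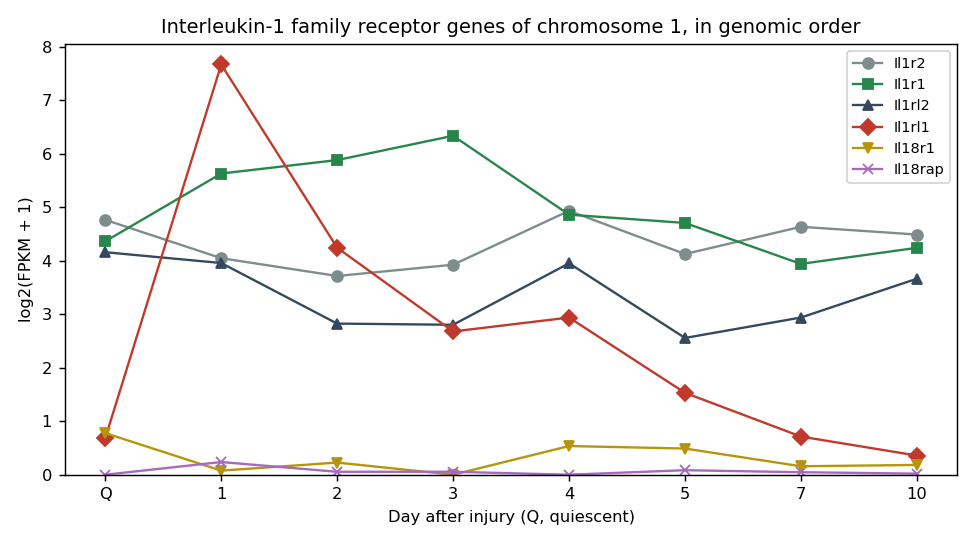
Level on log2(FPKM + 1) (vertical axis) of the 6 receptor genes of the chromosome 1 cluster in each library (horizontal axis, Q for quiescent). Il1rl1 is highest on day 1, Il1r1 on day 3, Il1r2 and Il1rl2 are lower at days 2 and 3 than in quiescent, and the interleukin 18 receptor genes stay under 1.

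Of the 7 other ligands and antagonists of the family that were listed, 3 had a row in the table. Il36a, Il36b, Il36g and Il36rn had none under those symbols and could not be followed. Of the 3, 2 were measured, that is, reached 1 FPKM in some library. Il18, a cytokine of the same family that is also cleaved by caspase 1, was called lower on day 1 (40.3 to 11.3 FPKM, -1.75 on the log2 scale) also under both scalings. At a common sum it was lower at days 2 and 3 as well (-1.31 and -1.09), and under the median ratio on day 2 (-1.06). Il1a, the other agonist of the type 1 receptor, reached 1.00 FPKM on day 1 and at most 0.136 elsewhere. Il18bp, which neutralises interleukin 18, was called higher on day 3 (1.92 to 6.78 FPKM) and on day 5 (5.76 FPKM), the latter not at a common sum.

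Few genes of the proteins that carry the signal from these receptors passed the fold. All 16 listed genes, from Myd88 to the IKK subunits, were measured and 11 or 12 were compared on each day. None was called higher on any of the 7 days. Of all genes, 22.5%, 23.7%, 15.7%, 4.56%, 8.42%, 4.01% and 3.09% were called higher at these days in order. On day 2, 2 of 12 were called lower, beside 10.9% of all genes, which were Map3k3, a kinase upstream of NF-kB (20.3 to 9.44 FPKM), and Irak3, an inhibitor of the pathway (25.7 to 12.2 FPKM). Map3k3 was also the 1 gene of 12 called lower on day 3 (7.63 FPKM) and on day 5 (7.38 FPKM), beside 8.26% and 4.61%. The list median lay between -0.21 and 0.04 over the 7 days, and the median of all 12950 measured genes between 0.02 and 0.13. Myd88, the adaptor next to the receptors, stood at 32.9 FPKM in quiescent and between 22.1 and 49.7 after injury. At a common sum the list median on day 2 was -0.72 and 3 of 12 genes were called lower, beside 2251 of 9013 over all genes.

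Of the 11 inflammasome and processing genes, which cleave or release the ligands, 10 had a row in the table (Gsdme had none) and 5 were measured. Called higher were 2 of 4 compared on day 1 (22.5% of all genes), 3 of 4 on day 2 (23.7%), 3 of 5 on day 3 (15.7%) and 2 of 5 on day 5 (8.42%), and none at days 4, 7 and 10, with list medians of 0.87, 1.40, 1.59 and 0.79 at the first 4 of these days. On day 3 they were Casp4, a caspase that senses bacterial lipid inside cells (4.19 to 24.7 FPKM), Pycard, the inflammasome adaptor (2.96 to 11.8), and Casp8, a caspase of cell death pathways (5.35 to 18.1). These 3 calls held under both scalings. At a common sum the counts were 1, 2, 3 and 2 of 5 compared at days 1, 2, 3 and 5. Over all genes at a common sum, 952 of 8956, 861 of 9013, 723 of 9067 and 371 of 8827 were called higher at these days. Casp1, which cleaves the precursor of interleukin 1 beta, stayed between 2.83 and 6.76 FPKM and was lowest on day 1, and Nlrp3, a sensor of the inflammasome, reached at most 0.817 FPKM. The macrophage markers were highest on day 3 and second on day 5 as well, and their part in these levels was not tested.

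For TSLP, 8 of 9 genes of its receptor and signalling list were measured and 7 were compared on each day. Called were 1 higher and 1 lower on day 2 (23.7% and 10.9% of all genes), day 3 (15.7% and 8.26%) and day 5 (8.42% and 4.61%). On day 10, 1 was called lower (1.21%). None was called on day 1 (22.5% and 12.5%), day 4 (4.56% and 2.16%) or day 7 (4.01% and 2.45%). With 7 genes compared, such counts say little of the list. Crlf2, the receptor chain specific to it, stood at 9.11 FPKM in quiescent and was called higher on day 5 (21.8 FPKM, 1.17 on the log2 scale), which was lost at a common sum (0.82). Il7r, the other chain of the receptor, reached at most 0.605 FPKM in any library. Jak2, a kinase of the pathway, was called higher on day 2 (7.90 to 23.7 FPKM) and day 3 (24.2), of which the day 3 call held at a common sum. Stat5b, a transcription factor at its end, was called lower at days 2, 3 and 5 (22.1 FPKM in quiescent, 10.2, 10.1 and 9.77), and on day 1 too under both scalings. Socs3, a feedback inhibitor of cytokine receptors, was called lower on day 10 (374 to 160 FPKM). The list median ran from 0.51 on day 1 to -0.20 on day 7, beside 0.05 for all measured genes at both days. On day 1 it became 0.17 under the median ratio and -0.01 at a common sum.

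Genes known to be induced by interleukin 1 in fibroblasts were high when Il1b and Il1rl1 were. Of 28 listed, 26 were measured, and on day 1, 18 of the 23 compared were called higher and 0 lower (22.5% and 12.5% of all genes), with a list median of 1.67 against 0.05 for all measured genes. At a common sum 15 of 23 were still called higher and 0 lower, with a median of 1.17, beside 952 and 2216 of 8956 genes over the whole table. The 3 with the largest increase were Cxcl5, a neutrophil chemokine (0.0354 to 1269 FPKM), Saa3, an acute phase protein (listed at the floor, then 113), and Cxcl2, another neutrophil chemokine (12.0 to 312). Il6, a cytokine that fibroblasts release on interleukin 1, stood at 42.7 FPKM in quiescent, 279 on day 1, 139 on day 2, 109 on day 3, 56.2 on day 4, 58.3 on day 5, 16.7 on day 7 and 12.2 on day 10. Tumour necrosis factor and bacterial products induce many of the same genes, so the list is not specific to interleukin 1. Not every gene of it was called on day 1, as Zc3h12a, an RNase that limits inflammation, was at 16.0 FPKM in quiescent and 15.8 on day 1, and Ptges, a prostaglandin synthase, at 25.6 and 21.7.

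The list went the other way at the end of the time course. On day 2, 10 of 21 compared genes were called higher and 2 lower (23.7% and 10.9% of all genes), and on day 3, 6 and 4 of 21 (15.7% and 8.26%). The counts were 3 and 1 of 21 on day 4 (4.56% and 2.16%) and 7 and 2 of 22 on day 5 (8.42% and 4.61%). They were 3 and 9 of 20 on day 7 (4.01% and 2.45%) and 0 and 11 of 19 on day 10 (3.09% and 1.21%). The medians were 0.75, 0.21, 0.14, 0.01, -0.60 and -0.65 at these days, and under the scalings the one on day 3 became -0.03 and -0.20 and the one on day 5 -0.05 and -0.17. At a common sum the counts at these 6 days were 7 and 5, 4 and 6, 3 and 1, 6 and 5, 1 and 11, and 0 and 11. Over all genes at a common sum they were 861 and 2251 of 9013 on day 2, 723 and 1469 of 9067 on day 3 and 323 and 316 of 8904 on day 4. On day 5 they were 371 and 1017 of 8827, on day 7 253 and 415 of 8823 and on day 10 285 and 115 of 9077. The 11 genes called lower on day 10 were called so under both scalings too. Among them, Ccl2, a monocyte chemokine, went from 133 FPKM in quiescent to 2780 on day 1 and 32.8 on day 10. Ptgs2, a prostaglandin synthase, went from 79.5 to 232 and 18.6, and Cxcl1, a neutrophil chemokine, from 416 to 3840 and 98.9. On day 10 Il1r1 differed from quiescent by -0.12 and Il33 by -0.02 on the log2 scale. Ccl2, Ptgs2, Cxcl1, Il6, Zc3h12a and Ptges were picked after their values were seen.

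**Figure D5:**
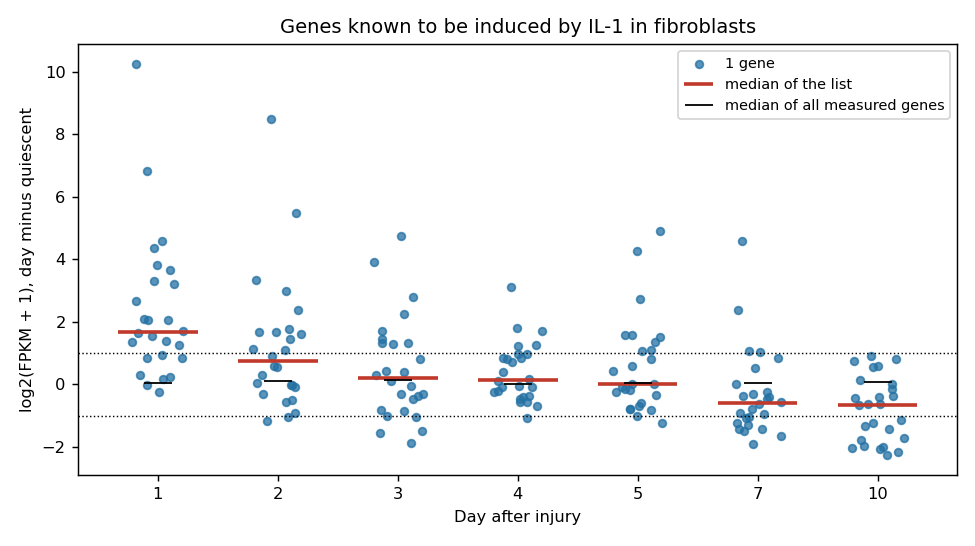
Difference of log2(FPKM + 1) from quiescent (vertical axis) for each of 26 measured genes known to be induced by interleukin 1 in fibroblasts, at each day (horizontal axis), with the list median in red and the median of all measured genes in black. The list median is 1.67 on day 1 and -0.65 on day 10, and dotted lines mark differences of 1 and -1.

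The genes most like each member over the 8 libraries were taken by Pearson correlation of log2(FPKM + 1) among 4256 genes that reached 10 FPKM and spanned 2-fold. For Il1rl1 they were Tnfrsf12a, the receptor of the cytokine TWEAK (r = 0.99), Rras2, a small GTPase (0.99), and Brix1, Eif4e and Pgm1 (0.98 each). For Il1b they were Cd14 (0.98), Dnaja1 (0.98), B4galt5, the chemokine gene Ccl3 and Hilpda (0.96 each). Among the genes closest to Il33 were Cul1 (0.97) and Mterfd2, Lhfp and Apobec1 (0.95 to 0.96). Il1r1 was closest to Nsg1, Dram1 and Vasp (0.98 each), Thoc6 (0.97) and Sept2 (0.96). Tslp was closest to Saa1, an acute phase protein (0.94), and Spry2, an inhibitor of growth factor signals (0.93), then to Pla2g12a, 2310061I04Rik and Trmt1 (0.87 to 0.88). Il1rap was closest to Fbxl14 (0.96), then to Dlc1, Prpf8, Aebp2 and Rbms1 (0.91 to 0.92).

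These lists rest on few points that share the same 8 libraries, and 1 library often decides them. Without the day 1 library none of the 5 genes nearest to Il1b or to Tslp stayed among the nearest 5, and without day 3 none of those nearest to Il33 did. For Il33 and Il1b none stayed without day 2 either. By rank correlation between 0 and 3 of the 5 stayed for each gene. Il1rn was left out because it never reached 5 FPKM.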

How the data were processed

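Polyadenylated RNA of sorted tdTomato+ cells was made into stranded TruSeq libraries, per the labels' protocols. The authors deposited 1 table of FPKM values per row of gene symbol and locus, with 0.001 as a floor in 6827 to 8217 rows per library. The submitters' processing notes name TopHat2, Bowtie2, Cufflinks and bcl2fastq and the build mm10, and give neither versions nor roles. What annotation and strand setting were used and how multi-mapping reads were handled is not given in the sources used here. Values of FPKM depend on the transcript model, so levels of genes with several isoforms are uncertain.

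The table gives no counts. Depth was estimated from the steps of low FPKM values in the 2088 genes for which GENCODE M21 lists only 1 transcript, of over 1500 bp, using transcript length less 150 bp. Of the values that came to 1 to 5 fragments, 75.2% to 80% per library were whole within a tolerance of 0.15. Fragments per gene follow from that depth and the length of the GENCODE transcript closest to the row. Intervals of levels are exact Poisson intervals (95%). Those of ratios between libraries (95%) come from a normal approximation on the log scale. That approximation is rough at the 6 fragments of Il1b and of Il1rn in quiescent. Both kinds cover counting error only, not animals, sorts or library preparation. Differences were taken on log2(FPKM + 1), which understates those of low genes, and with 1 library per time point no test was run. The steps were checked on simulated data.

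The 7 genes, the pathway and marker lists and the rules were chosen with earlier results of these data known, and the motifs after the sequences were seen. Genes named beside the 7 were, for each pathway list, up to 3 with the largest increase and 3 with the largest decrease past the fold, taken at the day on which that list's median lay farthest from 0, and the 5 nearest by correlation. Among these, 1 gene is not reported here. Other list genes named were picked after their values were seen. List counts leave out the 7 genes. RefSeq windows were found for 6 of the 7 genes and searched there (11 windows). The alternatives were a pseudocount of 0.1, median-ratio and common-sum scaling, no minimum or a minimum of 10 FPKM, 4-fold calls, rank correlation and leaving out libraries. Python 3.11.15, numpy 2.4.6, pandas 2.3.3, scipy 1.17.1 and matplotlib 3.10.9 were used.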

Additional observations from a re-analysis of the deposited data

How the results depend on the processing

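No paired analysis was possible because each time point is 1 library, and for the same reason no replicate could be left out. Of the 7 genes, 4 were called at day 1 and 2 at day 2, and rescaling to a common sum left 2 and 1. The median ratio left 3 and 2. At day 3, 3 were called higher (Il33, Il1rl1 and Il1r1), and the median ratio left 2 (Il1rl1 and Il1r1). At a common sum, of 4 compared at day 3, Il1r1 was called higher and Tslp lower. With no minimum FPKM, 1 (Il1b) was called at day 5 in place of 0, and with a minimum of 10 FPKM, 0 were called at day 4 in place of 1. At 4-fold, 2, 1 and 0 were called at days 1, 2 and 3 in place of 4, 2 and 3, and calls over all genes numbered 753, 782, 526, 133, 195, 109 and 110 at the 7 days, against 3045, 3061, 2100, 561, 1099, 541 and 362. The fewer calls at 4-fold and at 10 FPKM follow from the stricter limits, and the cause was not tested for the other changes. The calls of Il1rl1 at days 1, 2 and 4 and of Il1b at day 1 held under both scalings and at a pseudocount of 0.1. Of the 49 differences (7 genes at 7 days), 6 changed sign under the median ratio, 7 at a common sum and 0 at a pseudocount of 0.1. Depth limits Il1rn (at most 82 fragments) and Il1b in quiescent (6 fragments).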
